A study of Rattus norvegicus with 18 samples.

Results

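Bmal1, Clock, Npas2 and Cry1 are 4 genes of the circadian clock, described here in the gastrocnemius muscle of young and aged rats. They were taken by their Ensembl identifiers from the 32883 genes of the count table: ENSRNOG00000014448 for Bmal1, also called Arntl, ENSRNOG00000002175 for Clock, ENSRNOG00000013408 for Npas2 and ENSRNOG00000006622 for Cry1. Each lay on the chromosome given for it, and all 4 were among the 14646 genes that passed the filter on low counts. The 4 genes were chosen by their measured levels in the 3 groups of rats, so their levels and the differences between groups are given as a description, with no p-value. Which of them passed the call rule in the fit over all genes is given beside the share of all genes that did, and is not taken as evidence.

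The rats were male Brown Norway (BN/SsNOlaHSD) animals. The young group held 6 rats of 6 months fed ad libitum (AL), the aged AL group 6 rats of 28 months fed in the same way, and the aged CR group 6 rats of 28 months on caloric restriction (CR), with an intake of 55% of AL from 2 months of age. All were housed singly from that age. CR rats were given their ration once a day in the morning, while AL rats had food at all times. The hour at which muscle was taken is not given in the sources used here, so feeding schedule, hour of collection and diet cannot be told apart in these groups. RNA came from whole muscle, in which fewer cells of a type and less RNA per cell cannot be told apart either.

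The clock is a feedback loop of transcription. BMAL1 pairs with CLOCK, or with the related protein NPAS2, and the pair binds E-box sequences to switch on the Per and Cry genes, whose proteins then block the pair. In a second arm of the loop, REV-ERB proteins repress and ROR proteins activate Bmal1 by way of a shared recognition sequence in its promoter. The RNA of Bmal1 and of several other clock genes thus goes up and down over the day in most tissues, skeletal muscle included, and Cry1 peaks at another hour than Bmal1.

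Promoter sequences from RefSeq (assembly GRCr8) were at hand for 3 of the 4 genes, Bmal1, Clock and Npas2, with 2 alternative windows for Clock. The one of Bmal1 is shown because it is the gene with the largest differences below and the only one of the 3 with a match. Its 250 bases before the gene start, at chr1:176766078-176766327 on the + strand of GRCr8, read 5′ to 3′ as follows, with the matches described next in capitals.

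Bmal1: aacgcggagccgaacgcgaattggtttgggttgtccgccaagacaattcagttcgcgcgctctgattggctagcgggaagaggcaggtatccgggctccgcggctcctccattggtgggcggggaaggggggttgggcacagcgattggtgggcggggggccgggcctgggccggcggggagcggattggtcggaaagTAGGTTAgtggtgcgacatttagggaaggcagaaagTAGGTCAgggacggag

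The capitals mark TAGGTTA, from 52 to 46 bases before the start, and TAGGTCA, from 16 to 10 bases before it. TAGGTCA is the ROR and REV-ERB recognition sequence AGGTCA with a preceding T, and the AGGTCA match lies within it. TAGGTTA differs from it in a single letter and was searched only after the sequence had been seen. Of the 33469 rat promoter windows of 300 bases (250 before and 50 after the start), 2.63% held TAGGTCA, 16.2% held AGGTCA and 1.61% held TAGGTTA, on either strand. The other motifs searched on both strands were the E-box CACGTG (in 6.42% of windows), TGGGTCA (4.09%), the D-box TTANNTAA (5.84%) and the CRE TGACGTCA (1.83%), and none of them was in the Bmal1 window. Neither window of Clock nor that of Npas2 held any of these letters. A match is a description of letters, and binding was not measured.

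The levels below are CPM (the count of a gene relative to the total count of its library) scaled between libraries by TMM, a factor that adjusts for differences in RNA composition. Library totals ran from 17335401 to 27432767 counts over the 18 libraries. Library numbers ran from 8773 to 8780 in aged AL, 8822 to 8828 in aged CR and 8883 to 8888 in young rats. What these numbers stand for is not given in the sources used here. Anything that goes with them cannot be told apart from the group. Rat 8 (aged AL) and library 8828 (aged CR) stood apart from the rest on the first principal component of all genes, at 97.8 and 65.6 where the remaining 16 libraries lay between -35.7 and 6.55. Leaving both out changed no direction of the 12 fold changes of the 4 genes and no member called. For 3 aged CR libraries the column name joins numbers that the labels give to different rats of that group, so these are named by library number alone. Sample number 15 occurs in 2 of the column names and 18 in none, while the 6 library numbers are all different and each is that of another rat in the labels. That the 6 aged CR libraries come from 6 rats is therefore taken from the labels. The libraries of the 2 columns numbered 15 (rat 15 and library 8826) differed by far more than counting noise, with a chi-square of 116 per degree of freedom over genes, within the 21.4 to 273 of the 15 pairs of aged CR libraries.

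Bmal1, the obligate partner of the activating pair, was highest in young rats, lower in aged AL rats and lowest in aged CR rats, with no overlap between any of the groups. It lies at chr1:178039063-178137465 on the + strand of Rnor_6.0. Young rats 1 to 6 had 61.5, 65.0, 70.2, 51.6, 69.8 and 61.8 CPM. Aged AL rats 7 to 12 had 34.0, 23.2, 28.8, 29.1, 17.1 and 19.0 CPM. In the aged CR group, rats 13, 14 and 15 had 5.08, 7.09 and 6.18 CPM, and libraries 8826, 8827 and 8828 had 6.36, 10.9 and 8.44 CPM. The lowest young rat, rat 4, thus stood above the highest aged AL rat, rat 7, and the lowest aged AL rat, rat 11, above the highest aged CR library, 8827. Group means were 63.3 ± 6.85, 25.2 ± 6.53 and 7.34 ± 2.06 CPM (SD, n = 6 each). The mean of aged AL rats was 2.51-fold below that of young rats, and that of aged CR rats was 8.63-fold below young and 3.43-fold below aged AL rats. The fitted log2 fold changes were -1.33 (SE 0.18) for aged AL against young, -3.11 (SE 0.19) for aged CR against young and -1.78 (SE 0.18) for aged CR against aged AL. Of the 14646 genes tested, 98, 4 and 86 had a more negative log2 fold change in these comparisons, in the order given. Bmal1 was chosen on these contrasts, so nothing is read from its ranks.

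Clock, which carries the other subunit of the activating pair, followed the same order with smaller steps. It lies at chr14:34446616-34502218 (+ strand, Rnor_6.0). Its levels in young rats 1 to 6 were 130, 93.5, 198, 124, 129 and 135 CPM, and in aged AL rats 7 to 12 they were 126, 106, 106, 113, 83.5 and 83.8 CPM. These groups overlapped, with 2 of 6 aged AL rats, 11 and 12, below every young rat. Aged CR rats 13, 14 and 15 had 63.3, 64.5 and 61.3 CPM, and libraries 8826, 8827 and 8828 had 63.3, 62.2 and 56.4 CPM, all below every rat of the other groups. The means were 135 ± 34.1 in young, 103 ± 16.8 in aged AL and 61.8 ± 2.86 CPM in aged CR rats (SD, n = 6 each). The log2 fold changes were -0.39 (SE 0.14) with age in AL rats, -1.12 (SE 0.14) for aged CR against young and -0.74 (SE 0.14) for aged CR against aged AL rats. The value with age in AL rats was the least firm of these, at -0.24 without young rat 3, the highest in Clock, and at -0.18 with libraries scaled by total counts alone, a scaling that put the median gene at 0.18 in this comparison. The coefficient of variation of Clock was 25.3% in young, 16.3% in aged AL and 4.63% in aged CR rats. Single libraries weighed on these, since it was 13.5% in young rats without rat 3, below that of aged AL rats, and 1.92% in aged CR rats without library 8828. The spread also depends on the scaling. TPM scales levels per length to the same sum in each library. As TPM, Clock was 23.9 ± 5.44 in young, 20.1 ± 5.53 in aged AL and 10.9 ± 0.973 in aged CR rats (SD, n = 6 each).

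Npas2, the paralogue of Clock that can take its place beside BMAL1, was the lowest of the 4 genes in every group. It lies at chr9:45901741-46081880 (+ strand, Rnor_6.0). Young rats 1 to 6 had 8.33, 5.88, 9.17, 9.63, 5.59 and 5.15 CPM, and aged AL rats 7 to 12 had 9.21, 4.40, 3.69, 2.66, 1.37 and 2.69 CPM. Rat 7 lay within the range of the young rats, while the other 5 of 6 aged AL rats lay below all of them. Aged CR rats 13, 14 and 15 had 1.97, 1.39 and 0.890 CPM, and libraries 8826, 8827 and 8828 had 1.18, 1.44 and 1.47 CPM. No aged CR level reached that of any young rat, but only 2 of 6 lay below every aged AL rat, since rat 11 was itself at 1.37 CPM. The means were 7.29 ± 1.98, 4.003 ± 2.75 and 1.39 ± 0.356 CPM in young, aged AL and aged CR rats (SD, n = 6 each). The log2 fold changes were -0.86 (SE 0.33), -2.38 (SE 0.35) and -1.52 (SE 0.35) for aged AL against young, aged CR against young and aged CR against aged AL. Without rat 7 the first of these became -1.30, past the call rule described below, and the last became -1.09, no longer past it. The coefficient of variation of Npas2 in aged AL rats was 68.7%, and 38.85% without rat 7. Between 18 and 45 reads per library lay behind the aged CR levels, for which counting error alone would give a coefficient of variation of 17.8%, beside the 25.6% observed.

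Cry1, whose protein represses the activating pair, did not follow the other 3 genes. It lies at chr7:24534615-24634097 (+ strand, Rnor_6.0), was lowest in aged AL rats, and in aged CR rats lay close to the young level. Young rats 1 to 6 had 18.9, 15.8, 22.1, 16.8, 17.2 and 18.3 CPM. Aged AL rats 7 to 12 had 11.9, 7.90, 12.3, 11.6, 10.8 and 9.96 CPM, all below every young rat. Aged CR rats 13, 14 and 15 had 16.02, 14.8 and 14.1 CPM, and libraries 8826, 8827 and 8828 had 15.4, 18.6 and 14.2 CPM. These were all above every aged AL rat, and 4 of 6 were below every young rat. The gap to aged AL rats depended on the scaling, since as TPM aged AL rat 7 (7.93) lay above aged CR rat 14 (7.76). The means were 18.2 ± 2.22, 10.7 ± 1.63 and 15.5 ± 1.68 CPM in young, aged AL and aged CR rats (SD, n = 6 each). The log2 fold change was -0.76 (SE 0.12) for aged AL against young, -0.23 (SE 0.11) for aged CR against young and +0.53 (SE 0.12) for aged CR against aged AL. In the last comparison Cry1 was thus 1.45-fold higher in aged CR rats, where Bmal1, Clock and Npas2 were 3.43-, 1.67- and 2.88-fold lower. With libraries scaled by total counts alone, the log2 fold change of Cry1 in this comparison was +0.38.

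**Figure D1:**
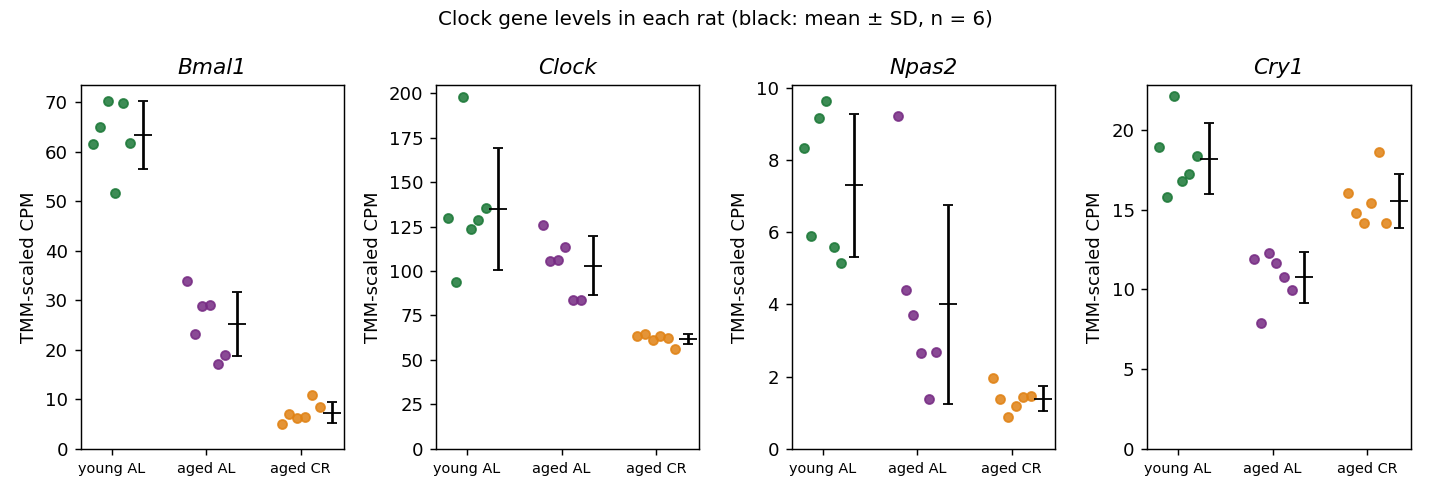
Level of each gene in each rat (points) in TMM-scaled CPM, on axes that start at 0, for young AL, aged AL and aged CR rats, with the mean ± SD of 6 rats in black. Bmal1 groups do not overlap, Clock lies between 56.4 and 64.5 CPM in aged CR rats, rat 7 is the high aged AL point of Npas2, and Cry1 is lowest in aged AL rats.

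Calls required a fold change of 1.5 or more together with an adjusted p, over all genes tested, of 0.05 or less in edgeR's quasi-likelihood test. Between aged AL and young rats, 2 of the 4 genes were called lower (Bmal1 and Cry1), where 1.52% of all genes tested were called lower, and the same 2 of 4 did not overlap between the groups, against 1.11% of all genes. Between aged CR and young rats, Bmal1, Clock and Npas2 were called lower (3 of 4, against 1.22% of all genes) and did not overlap between the groups (1.61% of all genes). Between aged CR and aged AL rats, the same 3 were called lower (0.546% of all genes), of which Bmal1 and Clock did not overlap (0.908% of all genes). The call of Npas2 was lost in edgeR on only these groups and without any one of rats 7, 14 and 15 and libraries 8826 and 8827. Cry1 did not overlap in the higher direction with TMM scaling (1.15% of all genes), and was not called because its fold lay under the minimum. The genes were chosen on these contrasts, so nothing is read from their share against that of all genes. These shares also depend on the scaling. With libraries scaled by total counts alone, 0.696%, 1.11% and 1.35% of all genes were called lower in the order given. The 3 comparisons share groups and are not independent of each other, and the median log2 fold change of all genes tested was 0.01, 0.00 and -0.02 in the order given.

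**Figure D2:**
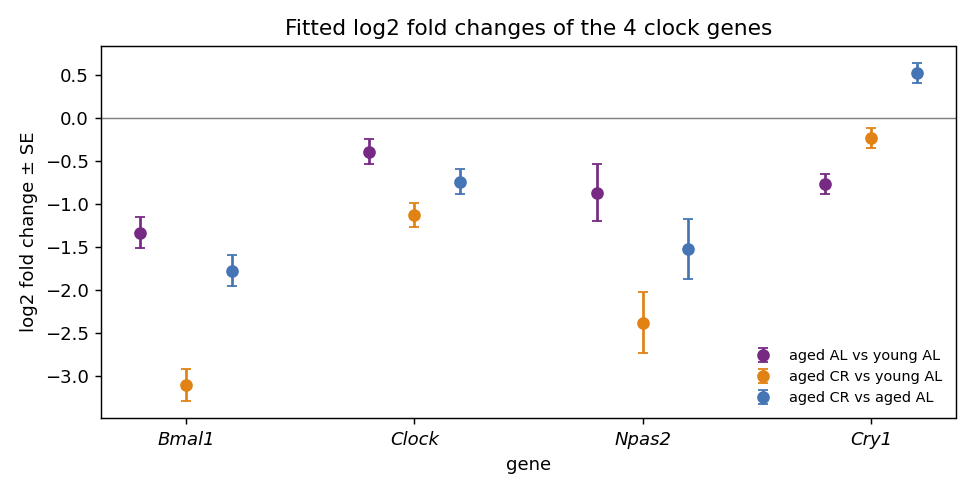
Fitted log2 fold change (points) with its SE (bars) for the 4 genes in the 3 comparisons. Values for Bmal1, Clock and Npas2 lie below 0 throughout and are most negative for aged CR against young AL, while Cry1 lies at -0.76 for aged AL against young AL and at +0.53 for aged CR against aged AL.

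Levels of different genes are compared per kilobase of gene length, using the lengths in the count table (2973 bases for Bmal1, 9419 for Clock, 4273 for Npas2 and 2922 for Cry1). The order of the genes depends on these lengths. By CPM alone the mean of Clock was above that of Bmal1 in every group, at 135 against 63.3 CPM in young rats. In young rats Bmal1 was the most abundant of the 4 per length, at 21.3 ± 2.305 CPM per kilobase, above Clock at 14.3 ± 3.62, Cry1 at 6.23 ± 0.759 and Npas2 at 1.71 ± 0.463. In aged AL rats Clock stood first at 10.9 ± 1.78, ahead of Bmal1 at 8.47 ± 2.20, Cry1 at 3.68 ± 0.557 and Npas2 at 0.937 ± 0.643. In aged CR rats Clock stood first at 6.56 ± 0.304 and Cry1 second at 5.31 ± 0.576, while Bmal1 had moved to the third place at 2.47 ± 0.692, before Npas2 at 0.326 ± 0.0834 CPM per kilobase (all SD, n = 6). Among all genes tested, Bmal1 went from percentile 80.2 in young to 60.3 in aged AL and 32.3 in aged CR rats, Clock from 72.7 to 66.4 and 54.1, Npas2 from 27.5 to 16.9 and 6.60, and Cry1 from 52.4 to 39.0 and 48.5.

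The order of Bmal1 and Clock could also be read within single animals. The ratio of Bmal1 to Clock per length was above 1 in 6 of 6 young rats (1.55 ± 0.373, range 1.13 to 2.20) and below 1 in all 6 aged AL rats (0.765 ± 0.0896, 0.648 to 0.861) and all 6 aged CR rats (0.378 ± 0.113, 0.255 to 0.554). Both genes contribute to the same protein pair, so this is a ratio of the RNAs of its subunits, not of the proteins. Whether this ratio lies above or below 1 depends on the gene lengths used, which act on all 3 groups alike. The ratio of Cry1 to Bmal1, repressor over activator, was 0.294 ± 0.0361 in young, 0.453 ± 0.114 in aged AL and 2.26 ± 0.553 in aged CR rats, and exceeded 1 in the 6 aged CR rats alone. For Npas2 over Clock, the paralogues, the means were 0.122 ± 0.0336, 0.0814 ± 0.0436 and 0.0497 ± 0.0127, and the groups overlapped apart from young and aged CR rats (all SD, n = 6).

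**Figure D3:**
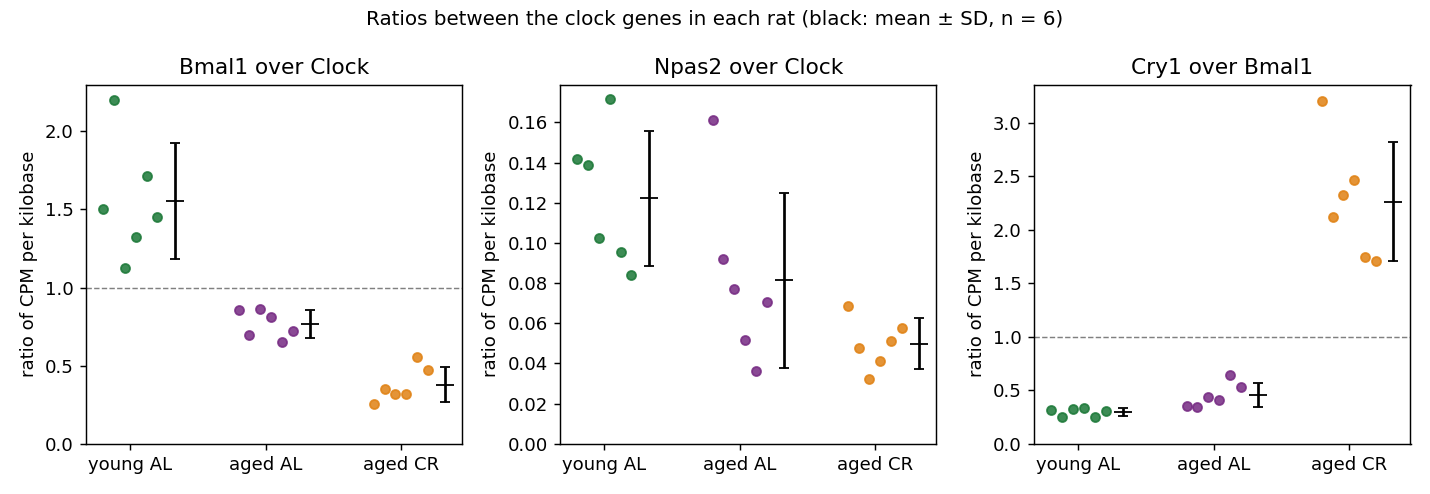
Ratio of CPM per kilobase between pairs of the genes in each rat (points), with the mean ± SD of 6 rats in black and a dashed line at a ratio of 1. Bmal1 over Clock is above 1 in every young rat and below 1 in every aged rat, and Cry1 over Bmal1 is above 1 in the aged CR rats, from 1.71 to 3.21.

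Variation between rats of the same group was not used to choose the genes, and it was compared between them by Pearson's r of log2 CPM, with a two-sided exact permutation test, over 18 relations (6 pairs of genes in 3 groups). Across the relations, 15 of 18 were positive and 2 passed an adjusted p of 0.05 (Benjamini-Hochberg over the 18). Signs of single relations were not firm. Without the 2 rats farthest from the median of Clock, r of Clock and Npas2 in young rats went from 0.435 to -0.801. That of Bmal1 and Npas2 in aged CR rats went from -0.051 to 0.834 without the 2 farthest in Bmal1. In aged AL rats Bmal1 and Clock varied together (r = 0.961, exact p = 0.00139, the smallest that 6 rats allow, adjusted p = 0.025, n = 6), and both genes put the 6 rats in the same order (Spearman's rho = 1, exact p = 0.00278, adjusted p = 0.05). Without rats 11 and 12, the 2 farthest from the median of Bmal1, r was 0.834. Of the 14645 other genes tested, 8 reached an r with Bmal1 at least this high in those rats, Clock among them. In young rats Clock and Cry1 varied together (r = 0.947, exact p = 0.00556, adjusted p = 0.05, n = 6), but rho, at 0.943, had an exact p of 0.0167 and an adjusted p of 0.15. Without rats 3 and 2, r was 0.702. Such an r was less rare there, being reached by 178 genes.

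Npas2 in aged AL rats had an r of 0.781 with Bmal1 and 0.806 with Clock, which missed the threshold after adjustment (adjusted p = 0.263 for both, exact permutation test). In aged CR rats none of the 6 relations passed, and Bmal1 and Clock had an r of -0.351 (adjusted p = 0.664, exact permutation test, n = 6). That r was -0.179 without library 8828 (n = 5) and -0.717 without library 8827 and rat 13. Whether the correlation differs between groups was not tested. The values of a rat share a library and a scaling factor. With RLE scaling in place of TMM, r of Clock and Cry1 in young rats was 0.950 and no longer passed (adjusted p = 0.075, exact permutation test), while r of Bmal1 and Clock in aged AL rats was 0.961 (adjusted p = 0.025). With libraries scaled by total counts alone, r of Bmal1 and Clock in aged AL rats was 0.931 (adjusted p = 0.131, exact permutation test) and that of Clock and Cry1 in young rats was 0.992 (adjusted p = 0.025). Without rat 8 and library 8828 these were 0.982 (n = 5) and 0.947, each with an adjusted p of 0.075 in the exact permutation test.

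**Figure D4:**
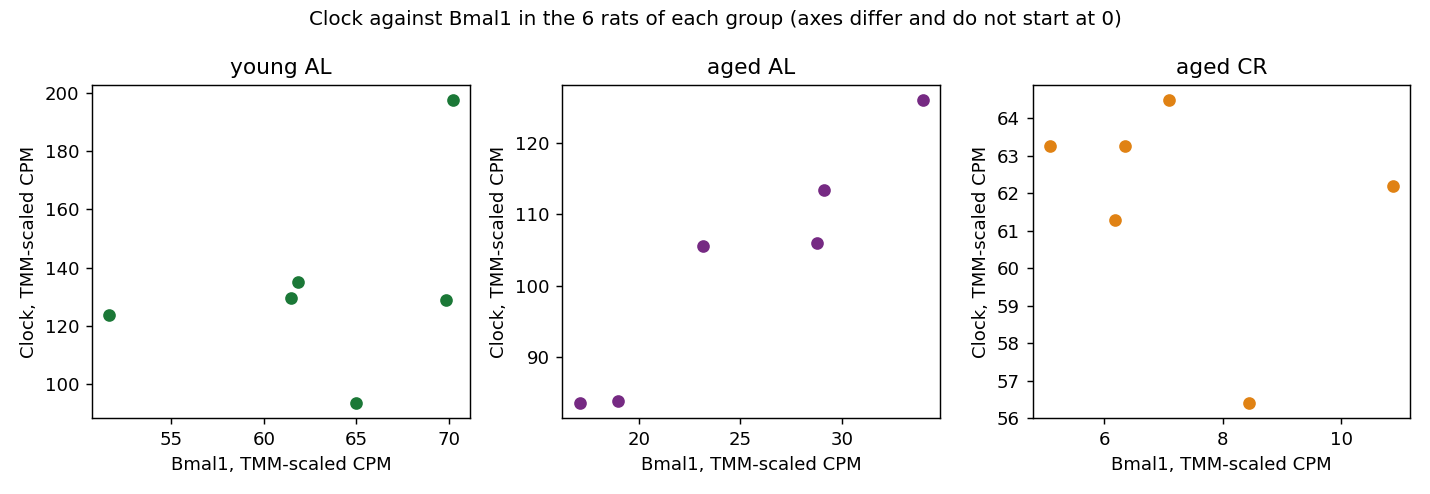
Clock against Bmal1 in TMM-scaled CPM, 1 point per rat, in a panel for each group with axes of its own that do not start at 0. The 6 aged AL rats line up from rat 11 (17.1 and 83.5 CPM) to rat 7 (34.0 and 126 CPM), whereas the aged CR rats spread over a narrow range of Clock, from 56.4 to 64.5 CPM.

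The SD of log2 CPM pooled over the groups was 0.32 for Bmal1, 0.24 for Clock, 0.53 for Npas2 and 0.18 for Cry1, where the median gene had 0.30. The value of Npas2 includes rat 7, without which its coefficient of variation in aged AL rats was lower, as given above.

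As a description of likeness over all 18 libraries, where the groups differ and the points are therefore not independent, Clock ranked 4 and Npas2 ranked 8 of 14645 genes by Pearson's r with Bmal1 (r = 0.908 and 0.887). Cry1 ranked 3627 (r = 0.240). The pair of genes most like Bmal1 were ENSRNOG00000049063 (chr20:19636159-19637958, r = 0.925), with group means of 7.11 ± 1.34, 3.32 ± 0.883 and 1.72 ± 0.761 CPM in young, aged AL and aged CR rats, and ENSRNOG00000007591 (chr13:48745860-48766283, r = 0.922), with 10.2 ± 1.12, 7.99 ± 1.12 and 3.76 ± 0.390 CPM. Most opposite were ENSRNOG00000021027 (chr1:101687855-101692846, r = -0.951), which went from 13.6 ± 1.76 in young to 46.4 ± 20.4 in aged AL and 90.1 ± 24.7 CPM in aged CR rats, and ENSRNOG00000018413 (chr5:168086998-168123395, r = -0.923), with 29.8 ± 7.37, 45.3 ± 5.18 and 78.6 ± 8.60 CPM (all SD, n = 6). The genes paired with these identifiers are not named here.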

How the data were processed

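Gastrocnemius RNA was sequenced from 18 rats in 3 groups of 6, assigned from the sample labels. After depletion of ribosomal RNA and strand-specific library preparation, the authors trimmed reads with cutadapt 1.2.1, aligned them to Rnor_6.0 with STAR 2.3.0e and counted them with featureCounts 1.6.4 on annotation release 96. The deposited values are these raw counts. The command in the file has no strand option, so reads of both strands were counted together, but no annotated gene overlaps any of the 4 genes on either strand.

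In R 4.3.3, genes were kept by filterByExpr, scaled by TMM and fitted over all 18 libraries with edgeR 4.0.16 (quasi-likelihood test, Benjamini-Hochberg adjustment). The code was run on simulated counts with the same dispersion for every gene and no library that stood apart. That setting is simpler than these data, so it checks the code and not the calls made here. Correlations used log2 CPM with a pseudocount of 0.5 and exact permutation tests. Each SE was derived from the log2 fold change and its F statistic (their ratio after taking the root of F). The quasi-likelihood p-values set a difference between groups against the spread between rats, counting error included. Permutation p-values set an r against those of all pairings of the values of the rats. Counting error by itself was computed as Poisson error.

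The members and lists were chosen with earlier results of these data known. Genes named were the 4 members and, at most, 2 identifiers most alike and 2 most opposite to Bmal1. The Ensembl identifiers were not paired with symbols in the sources used here (the symbols of the 4 genes came with the choice of members), so other clock genes and markers of muscle and other cell types were not analysed here, and the labelled tissue was not checked against its markers. Alternatives were other scalings, filters and thresholds, DESeq2 1.42.0, fits on only the groups compared, Spearman's rho, and leaving out libraries. Total-count scaling, coefficients of variation without single libraries, leaving out rat 8 and library 8828 in the correlations, the count of members called and the motif TAGGTTA were chosen after seeing the data.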

Additional observations from a re-analysis of the deposited data

Results flagged for a closer look

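Ratios per length and levels of the 4 genes, and the TMM factors of the libraries, were looked through for a rat far from the other 5 of its group, in 30 sets of 6 rats. Chance marks about 1 in 20 such sets, and 2 were marked, both in aged CR rats. Rat 13 had the highest ratio of Npas2 to Bmal1, at 0.269, with a gap to the next rat of 0.750 of the range of the group, against a critical value of 0.625. This rat had the lowest Bmal1 level of the group (5.08 CPM) and the highest Npas2 level (1.97 CPM). Library 8827 had the highest ratio of Cry1 to Clock, at 0.966, with a gap of 0.656 of the range, and its Cry1 level of 18.6 CPM was the highest of its group.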

How the results depend on the processing

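The 12 log2 fold changes of the 4 genes kept their sign in all 324 values (27 alternatives each), and the one of Clock between aged AL and young rats alone moved by over 1.5 times, from -0.39 to -0.24 without rat 3 and -0.18 with total-count scaling. The members called between aged CR and young rats were 3 under every alternative. Between aged AL and young rats they were 2, or 3 without rat 7, when Npas2 was added. Between the aged groups they were 3, or 4 with no minimum fold change, and 2 in edgeR on only those groups or without rats 7, 14 or 15 or libraries 8826 or 8827, when Npas2 was lost. The number of all genes called moved more. Its split moved with the scaling, from 222 lower and 275 higher to 102 and 364 with total-count and 173 and 330 with upper-quartile scaling between aged AL and young rats, from 178 and 112 to 149 and 165 with upper-quartile scaling between aged CR and young rats, and from 80 and 122 to 198 and 68 with total-count scaling between the aged groups. Total-count scaling shifted the median log2 fold change of all genes by 0.17 in the first and -0.17 in the last. Between aged AL and young rats it was 497, and 330 with 10 counts in every library, 983 and 859 in DESeq2 (all libraries, only the groups compared), 258 in edgeR on only the groups compared, and 288 to 678 leaving out 1 library (329, 325, 299, 305 and 288 without rats 1, 3, 5, 6 or 9). Between aged CR and young rats it was 290, with 704 and 955 in DESeq2, 441 in edgeR on only the groups compared, 455 without rat 8 and library 8828, and 185 to 578 leaving out 1 library (578 without rat 8, and 188, 192 and 185 without rats 3 or 5 or library 8826). Between the aged groups it was 202, with 129 under no filter beyond 1 count, 444 and 429 in DESeq2, 130 in edgeR on only those groups, 477 without rat 8 and library 8828, and 69 to 385 leaving out 1 library (385 and 361 without rat 8 or library 8828, 128, 129, 69 and 103 without rats 7 or 10 or libraries 8826 or 8827). The cause was not tested. Of the 18 correlations, 2 passed, against 1 by Spearman's rho and 1 with RLE scaling (Bmal1 and Clock in aged AL rats), 1 with total-count scaling (Clock and Cry1 in young rats) and 0 without rat 8 and library 8828, where 5 rats allow no smaller p than 0.00833 and 2 relations had an unadjusted p under 0.05. No paired analysis was possible because the groups share no replicate numbers.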
